A study of Mus musculus with 2 samples.

Results

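Mouse embryonic stem cells (ESCs) keep many of their regulatory elements in the DNA between genes. Described here are the open regions of that kind that lie more than 2 kb and at most 50 kb from the nearest transcript start, in WT E14 ESCs and in Uhrf1 KO E14 ESCs. They were taken from the deposited lists of open regions (peaks) on the mm9 genome by position and sequence. A peak was kept if it was autosomal, lay outside every gene body of the GENCODE vM1 annotation and had its centre in that range of distances. Peaks like CpG islands were left out, meaning those with a GC content of at least 55% and an observed over expected CpG ratio of at least 0.6 in the central 200 bp. The rule found 10911 peaks in the WT list and 10917 in the Uhrf1 KO list, 21828 of the 133554 peaks in all.

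The assay was ATAC-seq, where a transposase (Tn5) cuts and tags DNA that is free of nucleosomes. Each genotype had 1 library, made from 50000 lysed cells of an undifferentiated culture with leukemia inhibitory factor on plates coated with gelatin or with mouse embryonic fibroblasts (MEFs). The authors obtained both lines from the same other group, and the Uhrf1 KO cells were a single line. With 1 library per genotype, genotype, line history and library cannot be told apart, and every difference given is between libraries, without replicate error and without a test. The libraries are bulk samples, so fewer cells with an open region and less opening per cell cannot be told apart either. Sequencing depth is known only as read totals in the study's supplement, and the depth behind a single peak is unknown. A peak missing from a list is therefore not shown to be closed.

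Intergenic open regions near genes include enhancers, to which transcription factors bind to raise the activity of a gene at a distance, and sites of CTCF, a protein that shapes chromatin loops. In ESCs, Oct4 (the product of Pou5f1) and Sox2 often bind enhancers side by side, joined by Klf4, Esrrb and Nanog. Uhrf1 recognises half-methylated DNA after replication and brings the maintenance methyltransferase Dnmt1 to it, and cells without Uhrf1 lose DNA methylation at CpG sites.

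The WT and Uhrf1 KO lists held almost the same number of these intergenic peaks, although the KO list was shorter as a whole. The ratio of KO to WT peaks was 1.00, against 0.853 for all autosomal peaks. It was 0.766 for peaks within 2 kb of a transcript start, 0.606 for distal CpG-island-like peaks, 0.940 for distal peaks inside genes and 1.10 for intergenic peaks farther than 50 kb. The intergenic peaks at 2 to 50 kb thus made up 15.7% of the autosomal WT peaks and 18.4% of the autosomal KO peaks.

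Behind the equal numbers lay different positions. A peak counted as shared when the other whole list held a peak with a gap of at most 100 bp, as the study does for peaks of transcription factors, and otherwise as WT-only or KO-only. In WT, 4162 of the 10911 intergenic peaks were WT-only (38.1%, 95% exact Clopper-Pearson interval 37.2 to 39.1), against 32.2% of all autosomal WT peaks. In Uhrf1 KO, 4268 of the 10917 were KO-only (39.1%, 38.2 to 40.02), against 24.4% of all autosomal KO peaks. These intervals hold counting error alone, and peaks that lie side by side are not independent. The share without a partner was above that of the whole list in both genotypes, by more in Uhrf1 KO. Distal peaks inside genes gave similar shares (42.5% WT-only and 39.98% KO-only), as did intergenic peaks beyond 50 kb (36.5% and 43.0%). Within 2 kb of a start, 26.1% of WT peaks were WT-only and 9.73% of KO peaks KO-only. For distal CpG-island-like peaks the shares were 38.0 and 7.94%. The shares of the intergenic peaks at 2 to 50 kb depended on the number at the end of a peak's name, described below. In the 50% of them with the lower numbers, 19.6% of WT peaks were WT-only and 21.8% of KO peaks KO-only.

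Genes of the pluripotency network carried both shared intergenic peaks and peaks found in a single list. Each peak was assigned to the gene with the nearest transcript start, which does not show that the peak acts on that gene. Distances run to that transcript start, which can lie inside the gene. Of the 36 genes listed as core and naive pluripotency factors and targets, 35 were autosomal genes of the annotation and 26 had at least 1 intergenic peak. Together they held 62 WT peaks, 23 of them WT-only (37.1%), and 64 KO peaks, 24 of them KO-only (37.5%). These shares lay close to those of all the intergenic peaks. When peaks were assigned to the nearest protein-coding start instead, the list held 102 WT and 103 KO peaks, with 32 WT-only (31.4%) and 30 KO-only (29.1%), both below the shares of all the intergenic peaks.

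At the Nodal inhibitors Lefty1 and Lefty2 nearly all upstream peaks were shared. Lefty1 had 3 WT and 3 KO peaks, all shared, 10062 to 15169 bp upstream of its start. Lefty2 had 6 WT and 4 KO peaks, 3117 to 18856 bp upstream, of which 1 WT peak at 3117 bp was WT-only. A Lefty2 peak with the letters of the Oct4-Sox2 composite motif in its central 200 bp, a window that reaches past the listed peak on either side, was listed at the identical position in both lists, chr1:182818846-182818946, 4343 bp upstream. The Klf genes, which encode zinc finger factors of naive pluripotency, also had shared clusters. Klf5 had 5 WT and 6 KO peaks, with a shared group 22194 to 26307 bp downstream of its start and 1 KO-only peak 37401 bp upstream, or 8 WT and 8 KO peaks by the nearest protein-coding start (1 WT-only, 1 KO-only). Klf2 had a shared cluster of 3 WT and 4 KO peaks 2678 to 2892 bp upstream. It also had 3 WT-only peaks side by side at chr8:74857768-74858006, about 15 kb downstream (14886 to 15024 bp), and no KO-only peak.

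Other pluripotency genes had a mixture. By the nearest start of any kind, Prdm14, which holds back DNA methyltransferase genes in naive cells, had the most intergenic peaks of the list. It had 7 WT and 9 KO peaks, 2 WT-only and 3 KO-only. Its WT-only peaks lay 5025 and 7305 bp upstream of the start, and the KO-only peaks 10608 bp upstream and 18412 and 31474 bp downstream. By the nearest protein-coding start Nr5a2 had more, with 10 WT peaks (1 WT-only) and 9 KO peaks (1 KO-only). Sall1, a zinc finger gene, had 8 WT peaks with 4 WT-only and 5 KO peaks with 1 KO-only. Zfp42 (Rex1), a marker of naive ESCs, had 5 WT and 4 KO peaks, including a shared group 13721 to 13932 bp upstream, 2 WT-only peaks and 1 KO-only peak. By the nearest protein-coding start Zfp42 had 8 WT and 8 KO peaks, 4 WT-only and 4 KO-only. Klf2, Sall1 and Zfp42 all lie on chromosome 8, where all KO peaks together were few relative to WT (ratio 0.641). Dppa2, an activator of genes of the 2-cell embryo and germ line, had a single WT peak, which was shared, and 4 KO peaks, 3 of them KO-only. A pair of these KO-only peaks overlapped at chr16:48303729-48303893, about 6.8 kb upstream (6747 and 6811 bp), in sequence with AP-1 letters (TGANTCA). Their name numbers, 561 and 640, were lower than that of the shared KO peak (1526). A name number is the count within its chromosome at the end of a peak's name, and peaks with low numbers were more often shared. Dppa5a, Mycn and Sall4 also had 5 peaks each, and Dppa2 precedes them by symbol alone. Of their 3 KO peaks each, 2 were KO-only at Dppa5a, 2 at Mycn and 0 at Sall4.

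The loci of Pou5f1, Nanog, Sox2, Klf4 and Esrrb were looked up after their values were seen. Within 50 kb of the Nanog starts lay 7 WT and 7 KO intergenic peaks, all shared. Of these, 4 WT and 4 KO peaks formed a cluster at chr6:122652502-122653109, 4448 to 4955 bp upstream of Nanog, and the rest lay 37923 to 44674 bp upstream. The Nanog cluster is assigned to Gm10224, whose start is nearer. Pou5f1 had 1 intergenic WT peak, chr17:35640892-35640992, 2040 bp upstream of its start and so just beyond the lower limit of 2 kb. The KO peak paired with it started at 35640995, inside that limit. Within 50 kb of the Pou5f1 starts the lists held 2 WT intergenic peaks, 1 of them WT-only, and 4 KO peaks, all KO-only, which lay near Gm20419 and Cdsn. Sox2, Klf4 and Esrrb had 0 intergenic peaks of this kind within 50 kb in either list. Farther away, Klf4 was the nearest protein-coding gene of 6 WT and 7 KO peaks, all shared, and Esrrb of 1 WT-only peak.

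By nearest start of any kind, each of the lists of developmental genes held at most 9 WT and 9 KO intergenic peaks. The formative and neuroectoderm list held 9 WT and 9 KO peaks over 13 autosomal genes. Of these peaks, 1 was WT-only (11.1%) and 0 were KO-only (0%), against 38.1 and 39.1% of all the intergenic peaks. By the nearest protein-coding start it held 15 WT peaks with 1 WT-only (6.67%) and 19 KO peaks with 2 KO-only (10.5%). Among these, Otx2, a factor of formative cells and forebrain chosen after its values were seen, had 8 WT and 10 KO peaks. Zic2, a zinc finger gene of the neural plate, had 2 WT and 2 KO peaks 3229 to 4435 bp downstream, all shared. The mesoderm list held 9 WT peaks with 5 WT-only (55.6%) and 7 KO peaks with 4 KO-only (57.1%) over 14 genes, against 38.1 and 39.1% of all the intergenic peaks. By the nearest protein-coding start it held 18 WT peaks with 8 WT-only (44.4%) and 11 KO peaks with 4 KO-only (36.4%). T (Brachyury), the primitive streak T-box gene, had a WT-only peak with the CTCF letters 4273 bp upstream, a KO-only pair 28735 and 28815 bp downstream and a shared peak in both lists about 34 kb downstream (33967 bp in WT, 33948 bp in KO). Hand2, a heart and limb factor, had 2 WT and 2 KO peaks, all shared, 6536 to 8373 bp upstream. By the nearest protein-coding start Hand2 had 8 WT peaks, 3 of them WT-only, and 3 KO peaks, but it too lies on chromosome 8. Msx2 and Eomes were chosen after their values were seen. The homeobox gene Msx2 had 4 WT peaks, 3 of them WT-only, and 0 KO peaks that the rule kept, as the KO partner of the shared peak was left out by the rule, whereas the T-box gene Eomes had 0 WT and 2 KO-only peaks 9577 and 10223 bp downstream.

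The endoderm list held 4 WT peaks, 3 of them WT-only, and 1 shared KO peak over 7 genes. Foxa1, a factor that binds closed chromatin in endoderm, accounted for 2 of the WT peaks and for the KO peak, and Dab2, an endocytic adaptor of primitive endoderm, for 1 WT-only peak of 73 genomic copies. Foxa2, level with Dab2, also had 1 WT-only peak. Assigned to protein-coding starts alone, the list had 15 WT peaks with 8 WT-only (53.3%) and 21 KO peaks with 14 KO-only (66.7%), beside 38.1 and 39.1% of all the intergenic peaks. Foxa2 then had 7 WT and 6 KO peaks, 4 WT-only and 3 KO-only. More than any other gene of the list, Sox17, a regulator of endoderm, added to the KO counts. It was chosen after its values were seen. Sox17 was the nearest protein-coding gene of 3 WT peaks, all shared, and of 12 KO peaks, 9 of them KO-only. The KO-only peaks lay on chr1 between 4521537 and 4536631, 35093 to 50087 bp upstream of Sox17, in sequence of 36 to 56.5% GC. The nearest start of any kind there is that of a U6 small nuclear RNA gene.

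The 2-cell list held 4 WT and 5 KO peaks over 11 autosomal genes. Of these peaks, 2 were WT-only (50%) and 3 KO-only (60%), against 38.1 and 39.1% of all the intergenic peaks. By the nearest protein-coding start the order turned, with 8 WT peaks (5 WT-only, 62.5%) and 7 KO peaks (4 KO-only, 57.1%). Zfp352, a gene of the 2-cell embryo, had 1 shared WT peak and 3 KO peaks, 2 of them KO-only, at 9665 bp upstream and 46363 bp downstream. Zscan4c, which marks the 2-cell-like state, had 2 WT peaks and 1 KO peak, and its shared peak held the Oct4-Sox2 composite letters. The central 31 bp of that peak has 11 genomic copies at the WT position and 16 at the KO position, so its place is uncertain. The list of DNA methylation genes and Uhrf1 partners, 13 genes including Dnmt1, Dnmt3a, Dnmt3b and Setd1a, had 0 WT peaks and 1 KO peak. That peak, KO-only, lay at chr19:30170890-30170990, past the end of Uhrf2 (30168212), the paralogue of Uhrf1, and 4489 bp downstream of a transcript start inside that gene. With counts this small, a difference between the lists would not be detectable.

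Over all genes, the intergenic peaks fell to 8394 nearest genes, 5433 of them protein-coding. Of these genes 6505 had a WT peak, 6678 a KO peak and 4789 both, 2991 had just 1 peak and 119 had 10 or more. The gene with the most was Zfp825, a zinc finger gene on chromosome 13, with 15 WT peaks (1 WT-only) and 13 KO peaks (1 KO-only) in groups 10980 to 46756 bp from its start. Erap1, an aminopeptidase that trims peptides for antigen presentation, lies on the same chromosome and had 12 WT peaks, all shared, and 7 KO peaks, 1 KO-only. Npbwr1, a neuropeptide receptor gene on chromosome 1, had 12 WT peaks, all shared, and 12 KO peaks, 3 KO-only. The Npbwr1 peaks had GC contents from 27.5 to 55%, and their name numbers, 23 to 577, were low for the chromosome. The U6 gene at chr12:114452360-114452463 had 9 WT and 15 KO peaks (0 WT-only, 3 KO-only) and the 7SK gene at chr12:88150907-88151208 had 11 WT and 10 KO (3 WT-only, 1 KO-only). Few of the peaks of these genes were found in a single list, but a ranking by WT plus KO peaks favours genes with shared peaks.

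The genes with the most KO-only peaks were the U6 gene near Sox17 at chr1:4519098-4519204 (9 of 12 KO peaks), Gm5466 (6 of 9) and Rps2-ps6 (6 of 9). At each of them the WT list also had peaks, 3, 6 and 4 in that order, of which 1 at Gm5466 was WT-only. The genes with the most WT-only peaks were Lbx1 (7 of 7 WT peaks), Cox7a2l (6 of 9) and Gad1-ps (6 of 6). Lbx1 encodes a homeobox factor of muscle precursors, and Cox7a2l a factor that joins respiratory complexes. Lbx1 and Gad1-ps had 0 KO peaks, and Cox7a2l had 2, both shared. The Lbx1 peaks lay from 33121 bp downstream to 47691 bp upstream of its start, with 3 of them side by side at chr19:45317454-45317690.

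Letters of transcription factor motifs were searched in the central 200 bp of each peak on both strands, and in flanks of the same length 1 kb to either side. A match is a run of letters and not a bound site. The octamer ATGCAAAT (reverse ATTTGCAT), which POU factors such as Oct4 recognise, occurred in 2.98% of shared WT peaks (95% interval 2.59 to 3.41) against 1.51% of their flanks. It occurred in 1.68% of WT-only peaks (1.31 to 2.12; flanks 1.15%) and, among KO-only peaks, in 2.69% (2.23 to 3.23; flanks 1.78%). The share over all autosomal peaks was 1.57% (WT) and 1.94% (KO). The intervals of shared WT and KO-only peaks overlap, and over the peak as listed KO-only peaks had the highest share (1.52%, beside 1.33% of shared WT and 0.937% of WT-only peaks). Among peaks of 45 to 55% GC, a setting chosen after seeing the data, the order of WT-only and KO-only peaks turned, with 2.38% of WT-only and 2.17% of KO-only peaks.

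Counting all matches, the Oct4-Sox2 composite TTGTNATGC (reverse GCATNACAA) stood farther above its flanks than the octamer. Its share was 2.84 (shared WT), 2.00 (WT-only) and 3.58 times (KO-only) that of the flanks, against 1.97, 1.46 and 1.51 times for the octamer. It occurred in 1.60% of shared WT peaks (1.32 to 1.93), 0.961% of WT-only peaks (0.688 to 1.31) and 1.80% of KO-only peaks (1.43 to 2.25), against 0.563, 0.480 and 0.504% of the flanks. The share over all autosomal peaks was 0.723% (WT) and 0.878% (KO). The composite can overlap the octamer, and 7 of the 108 shared WT peaks with the composite also held the octamer. A large part of the composite matches came from sequence that recurs in the genome. Of the 335 intergenic peaks with the composite in both lists, 158 (47.2%), on 19 chromosomes, belonged to a single group of like sequence, defined after seeing the data by at least 20 shared 11-base words in a chain of peaks. The next largest group held 6. In the large group the median GC content was 42% with 1 CpG, and the central 31 bp was unique in the genome in 118 peaks (74.7%). Without that group the composite occurred in 0.830% of shared WT (0.627 to 1.08), 0.649% of WT-only (0.428 to 0.943) and 0.961% of KO-only peaks (0.690 to 1.30). These intervals overlap.

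The remaining pluripotency motifs did not move together. The Sox letters CCATTGTT occurred in 1.63% of shared WT, 0.817% of WT-only and 1.64% of KO-only peaks (flanks 1.13, 0.877 and 1.08%; all autosomal peaks 0.786% in WT and 1.12% in KO). The Sox order held at 45 to 55% GC, with 0.896% of WT-only and 1.80% of KO-only peaks. The Klf letters GGGNGTGG were common, in 14.4% of shared WT, 13.9% of WT-only and 12.1% of KO-only peaks, 2.47, 2.09 and 2.04 times the shares of their flanks (5.83, 6.67 and 5.95%), and in about 16% of all autosomal peaks (15.9% in WT). Among peaks of 45 to 55% GC the Klf order turned as well, with 12.2% in WT-only and 13.4% in KO-only peaks. The letters for Esrrb (TCAAGGTCA), Stat (TTCCNGGAA) and Tcf (CTTTGATG) each occurred in under 1% of every class. Their highest share was 0.890%, for Tcf in KO-only peaks, and lay below the 1.31% of the flanks. Stat letters lay above their flanks in shared WT (0.815 against 0.504%), WT-only (0.697 against 0.661%) and KO-only peaks (0.656 against 0.527%). Esrrb letters lay below theirs in shared WT and WT-only peaks and above in KO-only peaks (0.492 against 0.457%). Over all autosomal WT and KO peaks the shares were 0.645 and 0.704% (Stat), 0.298 and 0.329% (Esrrb) and 0.482 and 0.574% (Tcf).

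CTCF letters were most frequent in WT-only peaks. CNAGGGGGC (reverse GCCCCCTNG), part of the CTCF motif, was present in 194 of the WT-only peaks (4.66%, 4.04 to 5.35) but in just 65 of the KO-only peaks (1.52%, 1.18 to 1.94). Shared peaks lay between, with 2.62% in the WT list and 2.75% in the KO list. The flanks held it in 0.517% for WT-only and 0.375% for KO-only peaks, so its share was 9.02 times that of the flanks in the former and 4.06 times in the latter. The share over all autosomal peaks was 3.60% (WT) and 3.11% (KO). The order held at 45 to 55% GC, with 4.39% of WT-only (3.58 to 5.33) and 1.89% of KO-only peaks (1.39 to 2.50).

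The Gata, AP-1 and Tead letters showed the opposite order. Gata factors drive endoderm and blood fates, AP-1 joins Fos and Jun proteins, and Tead factors carry Yap signals. AGATAAG for Gata occurred in 171 KO-only peaks (4.01%, 3.44 to 4.64) and 61 WT-only peaks (1.47%, 1.12 to 1.88), beside 3.02% and 2.81% of their flanks. KO-only peaks thus lay above their flanks and WT-only peaks below them. TGANTCA for AP-1 occurred in 383 KO-only peaks (8.97%, 8.13 to 9.87) and 274 WT-only peaks (6.58%, 5.85 to 7.38), with flanks at 5.72% and 5.45%. ACATTCCA for Tead occurred in 81 KO-only peaks (1.898%, 1.51 to 2.35) and 34 WT-only peaks (0.817%, 0.566 to 1.14), with flanks at 1.14% and 0.925%. Shared WT peaks held these letters in 2.12% (Gata), 6.52% (AP-1) and 1.33% (Tead) of cases. All autosomal peaks held Gata letters in 1.14% of cases in WT and 1.82% in KO, AP-1 letters in 4.24 and 5.13% and Tead letters in 0.736 and 0.915%. At 45 to 55% GC the order held for all of them, at 4.13 against 1.93% for Gata, 10.3 against 7.35% for AP-1 and 2.25 against 0.941% for Tead.

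Motifs that are typical of promoters were rare in the intergenic peaks. Nrf1 letters (CGCATGCG) occurred in 0.238% of WT and 0.174% of KO intergenic peaks, against 2.00% (WT) and 2.02% (KO) of peaks within 2 kb of a start. Ets letters (CCGGAAGT) occurred in 0.669 and 0.568%, against 3.55 and 4.06% near starts, and CRE letters (TGACGTCA) in 0.422 and 0.440%, against 1.91 and 2.13%. All of these letters contain CpGs, and the rule removed CpG-island-like peaks that the peaks near starts keep, so this contrast is partly set by the rule. Banp letters (TCTCGCGAG) were found in 0 WT peaks and 1 KO peak. E-box letters (CACGTG) occurred in 4.01% of WT-only, 4.21% of shared WT and 3.35% of KO-only peaks, with flanks at 2.67, 2.50 and 2.44%. All autosomal peaks held E-box letters more often, in 5.426% (WT) and 5.345% (KO) of cases. At 45 to 55% GC the order of WT-only and KO-only turned for E-box letters (3.59 and 3.61%), as it did for Ets, Stat and Tcf letters. Rest letters (TTCAGCACC) occurred in 0.625% of WT-only, 0.578% of shared WT and 0.375% of KO-only peaks (all autosomal peaks 0.563% in WT and 0.518% in KO). Over the peak as listed, which is shorter than 200 bp, motif shares were lower by construction, and the order of WT-only and KO-only turned for CRE, Esrrb and Stat.

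The following shared WT peaks had the composite and the lowest name numbers relative to their chromosome among peaks with a unique central 31 bp. They are shown because they let the recurring sequence be read directly. All sequences here are the + strand of mm9 (NCBIM37) and intergenic, and capitals mark the composite or its reverse complement. A printed run covers the listed peak and extends to the motif where that lies outside it. The peak on chromosome 6 lies 39571 bp downstream of the start of A530053G22Rik, and the peak on chromosome 13 lies 6208 bp downstream of the start of the long non-coding RNA C130071C03Rik, 220718 bp from the start of Mef2c. On chromosome 5, the peak at 130643204 lies 4414 bp upstream of Rabgef1, and the peak at 9755869 lies 3021 bp downstream of the start of a U6 gene, 30567 bp from that of Grm3. The peak on chromosome 7 lies 4792 bp downstream of the start of a U3 gene, 18391 bp from that of Klf13. Of these 5 sequences, 3 belong to the group of like sequence, namely the chromosome 6 peak and both chromosome 5 peaks, of which that at 9755869 carries the composite on the other strand.
WT chr6:60314071-60314190: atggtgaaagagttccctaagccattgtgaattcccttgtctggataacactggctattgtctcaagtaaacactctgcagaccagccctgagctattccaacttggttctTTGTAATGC
WT chr13:83884644-83884744: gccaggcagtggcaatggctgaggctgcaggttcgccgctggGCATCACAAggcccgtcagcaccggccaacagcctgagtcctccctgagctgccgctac
WT chr5:130643204-130643304: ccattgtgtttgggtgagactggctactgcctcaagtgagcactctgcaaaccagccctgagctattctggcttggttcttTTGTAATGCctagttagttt
WT chr5:9755833-9755969: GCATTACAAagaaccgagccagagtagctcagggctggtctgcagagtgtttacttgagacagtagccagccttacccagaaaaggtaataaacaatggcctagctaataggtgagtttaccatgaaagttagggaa
WT chr7:71102135-71102242: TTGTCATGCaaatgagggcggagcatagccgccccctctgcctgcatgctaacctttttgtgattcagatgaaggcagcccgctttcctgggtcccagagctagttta
The chromosome 7 sequence joins the composite to the octamer, sharing the letters ATGC.

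At Pou5f1 and Lefty2, chosen after their values were seen, the composite stands in the central 200 bp of WT peaks with a KO partner. It lies just past the end of the listed WT peak in both sequences. They are printed because these genes belong to the network that Oct4 and Sox2 bind, and neither belongs to the group of like sequence. The Pou5f1 peak lies 2040 bp upstream of its start and holds the Klf letters, also in capitals, beside the reverse composite. The Lefty2 peak lies 4343 bp upstream and has the same position in both lists.
WT chr17:35640892-35641006: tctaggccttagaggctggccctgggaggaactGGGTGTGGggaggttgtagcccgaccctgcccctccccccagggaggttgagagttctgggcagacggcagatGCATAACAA
WT chr1:182818846-182818969: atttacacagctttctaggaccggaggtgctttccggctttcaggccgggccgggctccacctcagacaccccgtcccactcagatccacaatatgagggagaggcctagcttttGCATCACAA

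CTCF letters are shown in the shared WT peaks with the lowest relative name numbers, with the letters in capitals. The peak on chromosome 11 lies 31304 bp upstream of Gna13. The peak on chromosome 8 lies 21666 bp downstream of the start of the long non-coding RNA 5033428I22Rik, and 32801 bp from the start of Hand2, its nearest protein-coding gene.
WT chr11:109192791-109192891: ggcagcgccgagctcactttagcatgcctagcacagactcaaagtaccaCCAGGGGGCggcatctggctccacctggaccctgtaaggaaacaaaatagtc
WT chr8:59832531-59832640: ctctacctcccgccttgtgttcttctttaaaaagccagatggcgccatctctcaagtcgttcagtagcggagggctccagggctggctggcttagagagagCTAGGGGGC

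CRE letters, bound by Creb and Atf factors, contain a CpG whose methylation can block binding. The sequences printed are from the KO-only peaks with Nrf1 or CRE letters and the lowest relative name numbers, with the CRE letters in capitals. They are shown as examples only. CRE letters occurred in 17 KO-only peaks (0.398%, interval 0.232 to 0.637), 16 WT-only peaks (0.384%, 0.220 to 0.624) and 30 shared WT peaks (0.445%, 0.300 to 0.634), and at these counts no difference could be told. Nrf1 letters occurred in 5 KO-only (0.117%) and 14 WT-only peaks (0.336%). All autosomal peaks held CRE letters in 1.25% (WT) and 1.29% (KO) of cases, and Nrf1 letters in 1.25 and 1.11%. The peak on chromosome 17 lies 8318 bp upstream of the long non-coding RNA C430042M11Rik, 15921 bp from the start of Haao. That on chromosome 11 lies 39113 bp upstream of a 7SK gene.
Uhrf1 KO chr17:84262001-84262101: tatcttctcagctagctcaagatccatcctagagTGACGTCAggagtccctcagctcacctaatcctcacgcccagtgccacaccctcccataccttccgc
Uhrf1 KO chr11:89037110-89037243: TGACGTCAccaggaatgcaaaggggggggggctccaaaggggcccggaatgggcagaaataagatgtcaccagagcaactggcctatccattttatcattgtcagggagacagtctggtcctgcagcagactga

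Base composition moved with the genotype of the list. The median GC content of the central 200 bp was 53% in WT-only peaks, 52% in shared peaks of either list and 49% in KO-only peaks. The quartiles were 49.5 and 57% for WT-only and 44 and 52.5% for KO-only, so the classes overlapped broadly. Under 45% GC lay 27.1% of KO-only (25.8 to 28.5), 13.3% of shared WT peaks and 8.34% of WT-only peaks (7.52 to 9.22). At 60% GC or more lay 3.26% of the KO-only class (2.75 to 3.83) and 13.5% of the WT-only class (12.5 to 14.6). The rule left out GC-rich peaks with many CpGs, 1774 in WT and 1152 in Uhrf1 KO, of which 566 and 64 had no partner. The KO-only class would have been 35.9% with them kept.

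Across bins of GC content the ratio of KO to WT peaks fell steadily. It was 2.18 below 40% (319 WT and 697 KO peaks), 1.48 at 40 to 45%, 1.19 at 45 to 50%, 0.945 at 50 to 55%, 0.755 at 55 to 60%, 0.675 at 60 to 65% and 0.617 above. The KO-only share fell along with it, from 60.7% to 6.49% of KO peaks. The WT-only share rose from 17.6% below 40% to 42.9% at 60 to 65%, and was 38.0% above that. Equal numbers of WT and KO intergenic peaks were thus a surplus of KO peaks in AT-rich sequence and of WT peaks in GC-rich sequence. Distal peaks inside genes also fell, from 1.76 to 0.571. Intergenic peaks beyond 50 kb fell from 2.27 below 40% to 0.571 at 60 to 65% and stood at 0.667 above. Within 2 kb of a start the ratio was 1.24 below 40%, 1.39 at 40 to 45% and 0.694 above 65%. A fall with GC content is therefore not particular to the intergenic peaks near genes. Whether a different yield of GC-rich fragments in the libraries has a part in it was not tested.

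CpG content also differed at similar GC content. KO-only peaks had on average 2.62 CpGs per 200 bp, against 4.05 in WT-only, 3.91 in shared WT and 3.85 in shared KO peaks. The median observed over expected CpG ratio was 0.185 in KO-only and 0.264 in WT-only peaks. No CpG at all was found in 16.4% of KO-only (15.3 to 17.5) and 8.10% of WT-only peaks (7.29 to 8.97). Within 45 to 50% GC, the number of KO-only peaks divided by that of WT-only peaks was 1.77 with 0 to 1 CpG, 1.58 with 2 to 3, 1.45 with 4 to 5, 1.09 with 6 to 7 and 0.722 with 8 or more. Within 50 to 55% GC it went from 1.15 to 0.683, and within 55 to 60% from 0.868 to 0.261. KO-only peaks were therefore relatively scarce where CpGs were dense, at each of these levels of GC content. Below 45% GC the ratio fell from 4.32 to 0.75, but that last value rests on only 6 KO-only and 8 WT-only peaks.

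For most intergenic peaks the central 31 bp had no second exact copy in the genome, which is called unique sequence here. Such a peak can still lie in recurring sequence whose copies differ. In the large group of like sequence with the composite, 118 of 158 peaks (74.7%) had a unique central 31 bp. The central 31 bp occurred at a single place of the genome in 89.4% of WT-only, 83.3% of shared WT, 84.1% of shared KO and 81.0% of KO-only peaks. For all the intergenic peaks this share was 85.6% in WT and 82.9% in KO, below the 92.1 and 89.4% of all autosomal peaks. Distal peaks inside genes had 90.6 and 87.4%, and intergenic peaks beyond 50 kb had 77.5 and 72.2%. The KO share was the lower in each of these sets. At least 100 exact copies, counted on both strands, were found for 220 KO-only peaks (5.16%, 4.51 to 5.86) and 94 WT-only peaks (2.26%, 1.83 to 2.76). A read from such sequence can come from any copy, so the listed position is uncertain. Peaks of at least 10 copies were joined into groups by shared 16-base words, a grouping made after seeing the data. The largest group had 109 peaks, of which 46 were WT (9 WT-only) and 63 KO (32 KO-only), with a median of 1044 copies. The second had 48 peaks, 14 WT (5 WT-only) and 34 KO (27 KO-only), with 4093 copies and 40% GC. The groups next in size leaned to WT, with 27 WT and 15 KO peaks (42 in all) and with 26 WT and 15 KO peaks (41 in all). The latter was the richest of these in GC (56.5%) with a median of 7 CpGs. No repeat annotation was used here, so the groups carry no family names. Peaks of a group share sequence and are not independent.

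Intergenic sequence 2 to 50 kb from a start made up 650.4 Mb, or 27.2%, of 2394 Mb of autosomes. It held 16.8 peaks per Mb in both lists, against 29.0 per Mb for all autosomal WT peaks and 24.7 for KO peaks. Density was highest at 2 to 5 kb, with 19.0 WT and 19.4 KO peaks per Mb (95% exact Poisson intervals 18.1 to 19.97 and 18.5 to 20.4). It was 17.8 and 18.7 at 5 to 10 kb, 18.3 and 17.6 at 10 to 20 kb, and lowest at 20 to 50 kb with 14.8 and 14.7 (14.3 to 15.2 in both). The share without a partner hardly moved across these bins of distance, with WT-only between 36.7 and 39.4% and KO-only between 38.4 and 39.99%. The ratio of KO to WT peaks was highest at 5 to 10 kb (1.05) and lowest at 10 to 20 kb (0.964). Upstream of their nearest start lay 59.7% of WT-only and 60.6% of KO-only peaks. Near the limits of the rule, 66 WT and 59 KO peaks outside genes lay at 1.9 to 2 kb and 61 and 55 at 2 to 2.1 kb. At the upper limit, 77 WT and 97 KO peaks lay at 49 to 50 kb and 83 and 91 at 50 to 51 kb. At neither limit did the numbers of peaks change abruptly. From below to above 2 kb the KO-only share went from 27.1 to 43.6% and the WT-only share from 40.9 to 49.2%. Across 50 kb they went from 43.3 to 33.0% and from 31.2 to 27.7%. Each of these shares rests on only 55 to 97 peaks.

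Among chromosomes, chromosome 8 stood apart. It had 753 WT and 525 KO intergenic peaks, a ratio of 0.697, with 49.4% WT-only and 26.1% KO-only. The other 18 autosomes lay between 0.877 on chromosome 15 (398 WT and 349 KO peaks) and 1.13 on chromosome 3 (610 and 691), and 14 of them were above 1. Their WT-only shares ran from 30.8 to 45.5% and their KO-only shares from 35.6 to 45.6%. In WT, chromosome 8 had the highest density of intergenic peaks (26.0 per Mb), whereas in Uhrf1 KO its 18.1 per Mb lay below the 24.0 of chromosome 11 and above the 16.8 of all autosomes. Without chromosome 8 the ratio of KO to WT peaks was 1.02. All peaks of chromosome 8 had a ratio of 0.641, so a low ratio was not limited to the intergenic peaks. The depth of reads over it was not analysed here.

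Shared peaks were seldom listed at identical positions. Of the 6749 shared WT peaks, 232 had the same centre as a KO peak (3.44%), 48.4% had one within 10 bp and the median offset was 11 bp. Most intergenic peaks stood alone. Joining neighbours with a gap of at most 100 bp gave 9481 WT regions, 8258 of a single peak, and 9740 KO regions, 8757 of a single peak. Regions of 3 or more peaks numbered 170 in WT and 161 in Uhrf1 KO. In the fifth of each list with the lowest name numbers, 12 of 1034 intergenic WT peaks (1.16%, 0.601 to 2.02) and 67 of 1430 KO peaks (4.69%, 3.65 to 5.91) had no partner. In the fifth with the highest numbers the shares were 63.0 and 61.6%. The share without a partner thus depended strongly on the name number, whose meaning is not stated, and in the 50% of intergenic peaks with the lower numbers it came to 19.6% (WT) and 21.8% (KO).

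As a check of the cell label, peaks within 2 kb of marker genes were counted. All 10 ESC markers had a peak in both lists, with 39 WT and 34 KO peaks in total. Of 10 fibroblast genes, included because ESCs can be grown on MEFs, 7 had a peak in WT (13 peaks) and 5 in Uhrf1 KO (9 peaks). The most peaks were at Col1a1 in WT (4) and Col1a2 in Uhrf1 KO (3), and Col3a1, Postn and Twist2 had 0 in both. As nearest genes of the intergenic peaks themselves, the ESC markers held 9 WT and 8 KO peaks and the fibroblast genes 11 WT and 10 KO, so these peaks do not single out the ESC markers. A peak does not show expression, and a part of feeder cells in the intergenic peaks was not tested.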

How the data were processed

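ATAC-seq was measured in 1 WT and 1 Uhrf1 KO library. The authors mapped reads to mm9, and the submitters' processing notes name Bowtie2 2.1.0 and HOMER 4.9.1, the latter without a role. Caller, threshold and any shift to the Tn5 cutting site are not given in the sources used here. The deposited values are positions, in bases of mm9, and a deposited score, which was 1 for every peak and carries no signal. Every peak spans 101 bp, apart from 1 KO peak of 86 bp.

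Distances ran from the centre of a peak to the nearest GENCODE vM1 transcript start. Besides peaks outside the rule, 1 KO peak over unsequenced bases was left out. Sequence was read from NCBIM37 with pysam 0.24.0 and samtools 1.23.1, genomic copies were counted with numba 0.67.0, and intervals came from scipy 1.17.1, all under Python 3.11.15 with pandas 2.3.3 and numpy 2.4.6. The routines were tested on simulated data. No test between genotypes was made. Shares have 95% exact (Clopper-Pearson) binomial intervals and densities exact Poisson intervals.

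Genes were named from those that a rule gives: the 8 pluripotency genes and the 2 of each other list with the most WT plus KO peaks, and over all genes the 5 with the most peaks, the 3 with the most KO-only and the 3 with the most WT-only peaks, with ties settled by symbol. The peaks, lists and motifs were chosen with earlier results of these data known. Ranking by name number was chosen after seeing the data in earlier work. Alternatives were other overlap rules, merging of neighbours, unique sequence, removal of chromosome 8, lists of equal length, lower name numbers, a distance of 5 kb, CpG-island-like peaks kept, the peak as listed, protein-coding starts and, chosen after seeing the data, 45 to 55% GC and removal of a group of like sequence.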

Additional observations from a re-analysis of the deposited data

How the results depend on the processing

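No paired analysis was possible because WT and Uhrf1 KO had 1 library each. Of 408 alternative values, 277 stayed within the counting interval or, for counts, within 1.5 times, and 131 moved beyond. The settings reuse many of the same peaks, and rare motifs have wide intervals, so this tally does not measure how stable the results are.

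The WT-only share (38.1%) and the KO-only share (39.1%) were 41.1 and 41.9% where 1 bp had to be shared, 49.7 and 49.9% where 50% of both peaks had to be shared, and 39.97 and 41.5% after merging neighbours. A stricter overlap can only lower the number of partners. They were 31.4 and 45.2% with lists of equal length per chromosome, where the WT peaks of highest name number are dropped, and 19.6 and 21.8% in the 50% of lower name numbers. The WT-only share was 39.9% in unique sequence. The KO-only share was 35.9% with CpG-island-like peaks kept and 40.9% at 45 to 55% GC. Both shares stayed within their intervals without chromosome 8 and beyond 5 kb. The ratio of KO to WT peaks (1.00) was 0.969 in unique sequence, 0.951 with CpG-island-like peaks kept and 1.04 at 45 to 55% GC, so which list is the longer depends on the setting. The numbers of peaks stayed within 1.5 times in every setting run.

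Median GC over the peak as listed was 55.4% in WT-only, 53.5% in shared WT, 53.5% in shared KO and 50.5% in KO-only peaks. With lower name numbers it was 54% in WT-only, 51.5% in shared KO and 48% in KO-only peaks, and in unique sequence 52.5% in shared KO and 49.5% in KO-only peaks. KO-only peaks had the lowest median in each of these settings.

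Motif shares over the peak as listed, which is a shorter window, were as follows in WT-only and KO-only peaks: octamer 0.937 and 1.52%, composite 0.457 and 0.984%, Sox 0.505 and 0.914%, Klf 8.24 and 7.08%, Stat 0.240 and 0.351%, Tcf 0.288 and 0.469%, CTCF 3.12 and 0.984%, AP-1 3.60 and 4.92%, E-box 2.28 and 1.92%, Ets 0.409 and 0.351%, Gata 0.601 and 1.78%, and Tead 0.409 and 0.961%. Esrrb was 0.117% and Rest 0.141% in KO-only peaks. With lower name numbers, WT-only shares were 15.3% for Klf, 5.51% for CTCF, 5.33% for AP-1 and 0.748% for Gata, and KO-only shares 1.43% for Tcf, 0.672% for CRE, 2.61% for E-box and 0.336% for Ets. In unique sequence, KO-only shares were 13.3% for Klf and 9.92% for AP-1. At 45 to 55% GC, WT-only shares were 2.38% for the octamer, 12.2% for Klf and 1.93% for Gata, and KO-only shares 2.17% for the octamer, 1.28% for the composite, 13.4% for Klf and 10.3% for AP-1. There, 6 of the 17 motifs changed the order of WT-only and KO-only, against 3 over the peak as listed and 1 each with 1 bp shared, in unique sequence and with lower name numbers. Without the group of like sequence the composite was in 0.649% of WT-only and 0.961% of KO-only peaks. Beyond what shorter windows and dropped peaks bring by construction, the cause was not tested. Among shared peaks, 122 of 172 motif shares stayed within their interval and 50 moved, 31 of them over the peak as listed.

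By the nearest protein-coding start, which draws peaks from non-coding neighbours, the lists held 102 WT and 103 KO peaks (pluripotency), 15 and 19 (formative), 18 and 11 (mesoderm), 15 and 21 (endoderm), 8 and 7 (2-cell), and 1 and 2 (DNA methylation). Without read counts per peak, depth limits every share, and no peak has an error of its own.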
